A study of Mus musculus with 16 samples.

Results

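The genes described here are the integrin chains and the proteins that assemble on their cytoplasmic side at focal adhesions, 47 genes among the 24411 of the count table. They were taken by symbol: 18 integrin α chains, 8 integrin β chains and 21 plaque genes (Tln1, Tln2, Vcl, Pxn, Zyx, Ptk2, Ilk, Parva, Parvb, Lims1, Lims2, Fermt2, Actn1, Actn4, Tns1, Tns3, Bcar1, Src, Flna, Vasp and Nedd9). All 47 passed the filter on low counts in every comparison. RNA was sequenced from mouse muscle stem cells (MuSCs) of 4 groups with 4 libraries each. Control mice, which GEO's labels call wild type, were compared with TRF2MuSC-cKO mice, in which Cre driven from Pax7 after tamoxifen deletes floxed Terf2, the gene of the telomere-binding protein TRF2, in cells of the Pax7 lineage. Cells were taken from uninjured skeletal muscle or 3 days after injury (3 DPI) with 10 µl of the myotoxin notexin in the tibialis anterior. The age of the mice was not given in the labels used here, and the control mice appear in the study's scheme with the Pax7 Cre allele. The sort kept cells with α7-integrin and VCAM or CD34 on their surface and removed cells with CD45, CD31, CD11b or Sca1. Itga7 therefore encodes a protein that the gate required, and Itgam encodes CD11b, which the gate removed.

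Libraries held 620506 to 1351130 estimated counts, and the 47 genes took 0.514 to 0.804% of them. Terf2 stood at 66.3 to 94.5 CPM, the usual depth-scaled count, in uninjured controls and at 27.2 to 58.7 CPM in uninjured TRF2MuSC-cKO libraries. At 3 DPI it read 35.5 to 48.6 CPM in controls and 52.6, 21.9, 66.9 and 89.7 CPM in the libraries labelled TRF2MuSC-cKO, so at 3 DPI the targeted gene went against the label in 3 of these 4 libraries. Replicate 3 of the latter group stood apart, with 15387 genes detected against at least 19996 in every other library and with 4 members (Itga1, Itga8, Itgae and Lims1) at 0 counts, and main results that rest on it are also given without it. At 3 DPI the genotype is therefore that of the label throughout. The uninjured libraries of the 2 genotypes share no prefix in their sample names, so prefix and genotype cannot be told apart there. At 3 DPI replicates 1 and 2 of both genotypes share 1 prefix.

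Integrins are heterodimers of an α and a β chain that bind matrix outside the cell and the cytoskeleton inside it. The β chain tail is bound by talins and kindlins, which activate the receptor, and by a complex of integrin-linked kinase with PINCH and parvin proteins. Vinculin, α-actinins, filamin, tensins, zyxin and VASP link the plaque to actin, and focal adhesion kinase, paxillin, Src and the CAS proteins signal from it. In adult muscle α7 pairs with β1 and holds the satellite cell and the fibre to laminin of the basement membrane, and β1 integrin is needed for MuSC quiescence and for their response to injury. The β2 chain and its αL, αM, αX and αD partners are leukocyte receptors.

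Gene levels were compared with each other per unit of length, as the mean per-length abundance in the rescaled table. In uninjured controls the highest members were Actn4, encoding α-actinin 4, at 511 ± 58.5 (mean ± SD, n = 4 libraries), filamin A (Flna) at 301 ± 37.3, Itga7 at 258 ± 24.2, zyxin (Zyx) at 254 ± 34.4 and talin 2 (Tln2) at 183 ± 28.4. Filamin A, Itga7 and zyxin did not differ beyond their spread. Itgb1 followed at 169 ± 31.0, so that the 2 chains of α7β1 were the most abundant integrin chains per length. Olfactory receptor genes served as a measure of background reads: 95% of 1107 such genes lay under an abundance of 12.6 in this group. Of the members, 14 also lay under that level, 13 of them integrin chains, among them Itgam, Itgb2, Itgax, Itgal, Itgae and Itgad of leukocytes and Itga4 and Itga9. The corresponding level was 22.1 in uninjured TRF2MuSC-cKO libraries, where 14 members lay under it, 14.9 in controls at 3 DPI with 8 members under it, and 30.6 in TRF2MuSC-cKO libraries at 3 DPI with 20 under it. Among these 20 were Tln2, Fermt2, Itga4, Itga9 and Itgal, at 29.4, 25.0, 28.4, 18.9 and 19.2. Their fold changes below that use this group rest on mean readings under that level. Tln2 lay just under it, with estimated counts of 97 to 135 per library. The means behind the level include replicate 3, and neither the level nor the 20 is given without that library. The median olfactory receptor abundance was 6.77 in this group and 6.56 in controls at 3 DPI.

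RefSeq promoter sequences of GRCm38.p6 were at hand for 34 of the 47 members (40 promoters). Those of Itgb1 and Actn1 are shown because these genes were called lower in uninjured TRF2MuSC-cKO cells, and that of Itgam because it rose with injury in both genotypes. Each is printed 5′ to 3′ on the gene's strand for the 250 bases before the RefSeq start site. Capitals mark GAGGAA, the core that the myeloid factor PU.1 binds, in Itgb1 (chr8:128685404-128685653, plus strand) and Itgam (chr7:128062390-128062639, plus strand), and a G-run pattern in Actn1 (chr12:80260364-80260613, minus strand). Both motifs are in capitals also where they lie on the other strand.
Itgb1: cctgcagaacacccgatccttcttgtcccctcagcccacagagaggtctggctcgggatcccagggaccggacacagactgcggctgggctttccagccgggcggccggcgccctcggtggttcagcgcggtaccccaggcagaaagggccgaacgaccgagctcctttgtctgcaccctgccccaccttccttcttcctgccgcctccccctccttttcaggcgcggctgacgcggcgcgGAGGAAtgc
Actn1: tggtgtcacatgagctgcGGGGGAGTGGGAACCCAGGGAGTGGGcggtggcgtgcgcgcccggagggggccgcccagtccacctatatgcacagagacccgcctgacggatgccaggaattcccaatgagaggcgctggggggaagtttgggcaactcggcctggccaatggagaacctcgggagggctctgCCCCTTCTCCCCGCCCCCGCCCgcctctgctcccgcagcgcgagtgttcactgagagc
Itgam: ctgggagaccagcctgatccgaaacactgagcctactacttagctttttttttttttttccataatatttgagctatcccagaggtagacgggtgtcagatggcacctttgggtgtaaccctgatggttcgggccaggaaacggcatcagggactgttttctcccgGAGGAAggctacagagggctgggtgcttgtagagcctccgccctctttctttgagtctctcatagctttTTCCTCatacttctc
The G-run pattern, 4 runs of at least 3 G (GGG) with spacers of 1 to 7 bases on either strand, is the sequence form of a possible G-quadruplex, a DNA fold that TRF2 is known to bind. It was present in 14 of 40 member promoters (35.0%) and in 16.7% of all 32851 promoters of the same length. Zyx, also called lower, was among the 14 and Itgb1 was not. For the called genes Itga7, Tln2 and Itgb4 no promoter sequence was at hand. The telomeric repeat TTAGGG, on either strand, was in 2 member promoters (5.0%, Itgb5 and Lims1) and in 9.32% of all, and its GGG can count as a run of the former pattern. GAGGAA, on either strand, was in 30.0% of member promoters and 23.3% of all. The E-box CANNTG was searched too and was in 67.5% and 66.2%. The CArG box, CC and GG around a run of A or T, was in 3 member promoters (7.5%, Fermt2, Itgb6 and Vcl) and in 1.47% of all. A match to these letters is a description of the sequence.

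In uninjured muscle, the question was how loss of TRF2 alters these genes in resting MuSCs. Both chains of the laminin receptor α7β1 were lower in TRF2MuSC-cKO cells, together with talin 2, α-actinin 1 and zyxin of the plaque, while the β4 chain was higher. Of the 47 members 5 were called lower (10.6%), against 2.63% of the 14048 genes tested, and 1 was called higher (2.13%), against 0.584%. A call required an adjusted p under 0.02 in edgeR's quasi-likelihood test and a fold change over 1.5.

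Itga7 (chr10:128933818-128958282, GRCm38, plus strand) read 520.0, 408, 406 and 528 CPM in the 4 control libraries and 144, 153, 189 and 256 CPM in the 4 TRF2MuSC-cKO libraries. The groups did not overlap, and the level was 2.31-fold lower in TRF2MuSC-cKO cells (log2 fold change -1.21, SE 0.20, adjusted p = 0.000105). Itgb1 (chr8:128685654-128733200, plus strand), the common partner of α7 and of most matrix-binding α chains, read 397, 318, 227 and 331 CPM in controls and 134, 159, 159 and 223 CPM in TRF2MuSC-cKO cells. The highest TRF2MuSC-cKO library lay just under the lowest control, and Itgb1 was called lower (log2 fold change -0.79, SE 0.20, adjusted p = 0.0118). Itgb4 (chr11:115974709-116008412, plus strand) encodes the β4 chain, which pairs only with α6 and is best known from epithelial hemidesmosomes. It read 76.8, 47.7, 45.3 and 70.2 CPM in controls and 142, 118, 123 and 117 CPM in TRF2MuSC-cKO cells. It was the only member called higher, 2.27-fold, with no overlap between groups (log2 fold change 1.19, SE 0.23, adjusted p = 0.000789). Its partner Itga6 read 44.8 to 60.8 CPM in controls and 50.9 to 98.8 CPM in TRF2MuSC-cKO cells and was not called (log2 fold change 0.62, SE 0.27, adjusted p = 0.18).

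**Figure D1:**
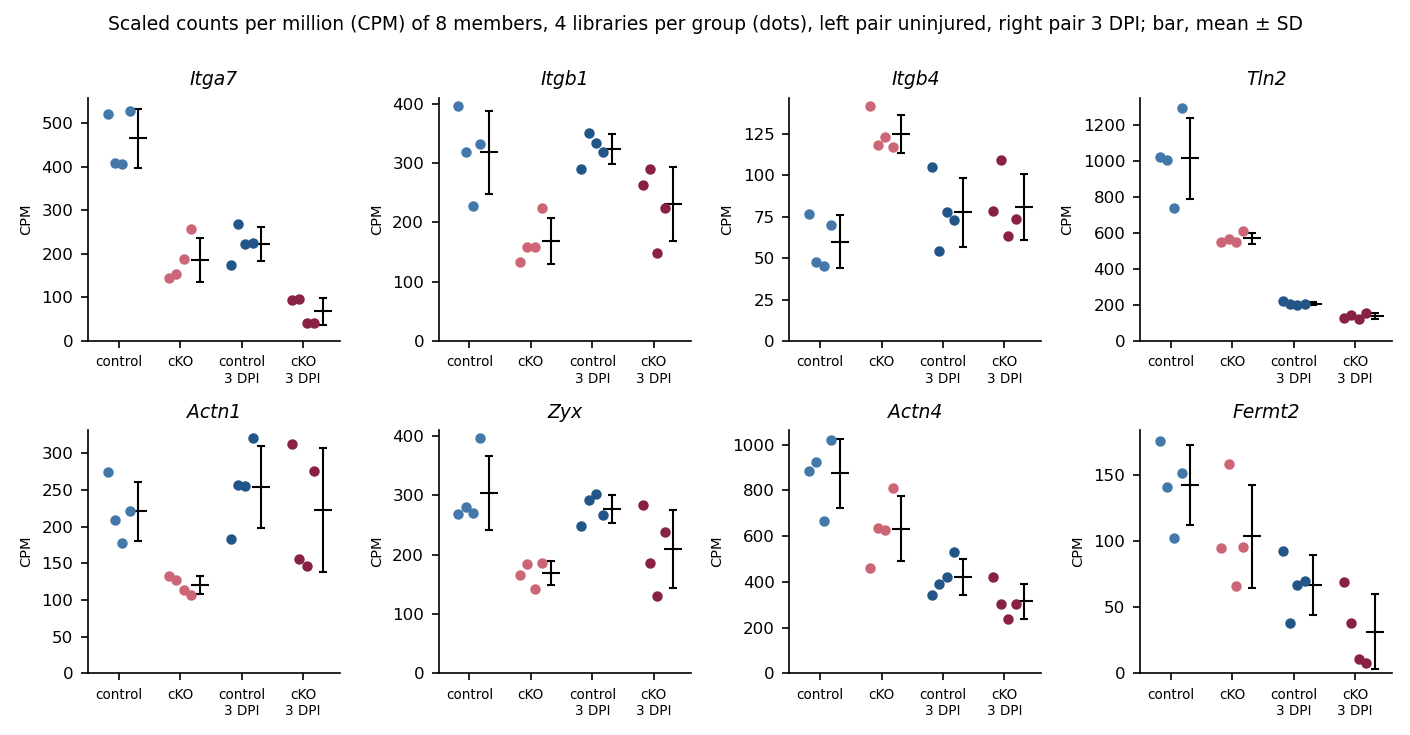
Level in CPM (vertical axes, from 0) of 8 members in each of the 16 libraries (dots, 4 per group), with the group mean ± SD beside the dots, cKO standing for TRF2MuSC-cKO. Itga7, Itgb1, Tln2, Actn1 and Zyx lie lower and Itgb4 higher in all 4 uninjured TRF2MuSC-cKO libraries than in the 4 uninjured controls, and Tln2 lies under 220 CPM in all libraries at 3 DPI.

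Among the plaque genes, Tln2 (chr9:67217087-67559703, minus strand), the talin of striated muscle, read 1020.3, 1006, 738 and 1292 CPM in controls and 549, 568, 548 and 613 CPM in TRF2MuSC-cKO cells, with every TRF2MuSC-cKO library below every control (log2 fold change -0.70, SE 0.19, adjusted p = 0.019). Tln1, the talin that other cell types use, read 346 to 544 CPM in controls and 266 to 463 CPM in TRF2MuSC-cKO cells and was not called (log2 fold change -0.20, SE 0.20). The 2 talin changes were not tested against each other. Actn1 (chr12:80167547-80260371, minus strand), encoding the actin crosslinker α-actinin 1, read 275, 209, 178 and 221 CPM in controls and 133, 128, 113 and 106 CPM in TRF2MuSC-cKO cells (log2 fold change -0.75, SE 0.20, adjusted p = 0.0175). Zyx (chr6:42349630-42360213, plus strand), whose LIM protein marks adhesions under tension, read 268, 281, 271 and 397 CPM in controls and 166, 185, 142 and 185 CPM in TRF2MuSC-cKO cells (log2 fold change -0.72, SE 0.19, adjusted p = 0.0195). For neither gene did the groups overlap.

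Leaving out single libraries separated 2 of these calls from the others. Itga7 stayed called lower and Itgb4 higher without any one of the 8 libraries. By tool and table, Itga7 lost its call only in the rescaled table, whereas Itgb4 lost it there, in the fit of all 16 libraries together and in limma's robust fit (adjusted p up to 0.0633 over all alternatives). The calls of Itgb1, Actn1, Tln2 and Zyx were near the threshold: without uninjured control replicate 1, 2 or 4, or TRF2MuSC-cKO replicate 2 or 3, 1 member was called lower, and without TRF2MuSC-cKO replicate 1 or 4, 2 were. In limma's robust fit, with library size alone as the scaling, and when all 16 libraries shared 1 fit, 1 member was called lower, and in the rescaled table none. Lower calls fell over all genes too, to 142, 212, 70 and 11 in that order, against 370 in the main fit. Without 1 of the libraries named they numbered 214 to 326 over all genes.

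The remaining 41 members were not called, with log2 fold changes from -0.64 for Ilk to 1.41 for Itgae. Of these, Itgae was called higher with DESeq2 and with library size alone, Itgal with a minimum of 10 counts in every library, and Itga4 in limma's robust fit. The 3 nearest to the threshold were integrin chains with higher readings in all 4 TRF2MuSC-cKO libraries than in any control. Itgae, the α chain by which lymphocytes bind E-cadherin, read 8.14 to 16.6 CPM in controls and 24.5 to 40.2 CPM in TRF2MuSC-cKO cells (log2 fold change 1.41, SE 0.42, adjusted p = 0.0386). Itgal (αL) read 11.6 to 26.1 and 28.6 to 50.1 CPM (log2 fold change 1.18, SE 0.37, adjusted p = 0.0477), and Itga4 (α4, a VCAM1 receptor) 18.8 to 39.5 and 42.9 to 50.9 CPM (log2 fold change 0.95, SE 0.33, adjusted p = 0.0883). These low readings lay near the olfactory receptor background, whose summed level was itself 1967 to 3567 CPM in controls and 3276 to 4029 CPM in TRF2MuSC-cKO libraries. Whether background had a part in these differences was not tested.

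By role, the 26 integrin chains had a median log2 fold change of 0.59 and the 21 plaque genes one of -0.20, beside 0.06 over all genes tested. In each uninjured group 13 of the 26 chains lay under the olfactory receptor level per length, among them Itga2, Itga11, Itga2b, Itgb6 and Itgb8. The part of background in these values was not tested. The 4 collagen-binding α chains (Itga1, Itga2, Itga10, Itga11) had values between 0.47 and 0.78, with none called. The platelet chains Itga2b and Itgb3 read 0.72 and 0.27, and the TGF-β-activating chains Itgb6 and Itgb8 0.01 and 0.58, none of them called in any comparison. The RGD-binding chains Itga5, Itga8 and Itgav had a median of -0.25. In the complex of Ilk with PINCH and parvin proteins, Ilk read -0.64 (adjusted p = 0.152) and Lims1 -0.48 (adjusted p = 0.224), and no gene of the 5 was called. The scaffold and kinase genes Pxn, Ptk2, Src, Bcar1 and Nedd9 had a median of 0.12 and no call. Of 48 further focal adhesion genes tested, 4 were called lower (8.33%, against 2.63% of all genes) and none higher (against 0.584%). The 4 were filamin C (Flnc, log2 fold change -1.17), the PAK exchange factor Arhgef6 (-1.19), caveolin 1 (Cav1, -0.93) and the tetraspanin Cd82 (-0.83).

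Other cells' markers were read beside these values. MuSC markers were lower with the members: the 11 genes summed to 4253 to 6424 CPM in uninjured controls and 2346 to 3511 CPM in TRF2MuSC-cKO cells, all 11 had a log2 fold change below 0 and 7 were called lower. The called ones were Itga7 itself, Vcam1 and Cd34 of the gate, Calcr, Cdh15, Myod1 and Sdc4. In bulk RNA fewer cells of a type and less RNA per cell cannot be told apart. The 19 leukocyte markers summed to 138 to 152 CPM in controls and 179.7 to 226 CPM in TRF2MuSC-cKO cells, 9 of them passed the filter and none was called, and none was at 0 in all libraries of a group. The 10 fibroadipogenic markers summed to 4744 to 7500 CPM in controls and 1279 to 2694 CPM in TRF2MuSC-cKO cells, with Col3a1 and Dpt called lower and Dcn higher among 7 tested. Most of that sum was Col3a1, at 4041 to 6597 CPM in controls and 737 to 1693 CPM in TRF2MuSC-cKO cells. Of the 7 tested, 5 had a log2 fold change above 0 and 2 below, with a median of 0.64. The 6 Schwann cell markers summed to 245 to 329 and 361 to 510.1 CPM, with none called, and of the mural markers Cspg4 and Rgs5 were called higher, at a sum of 2263 to 3290 and 1864 to 2648 CPM. The part of any of these lists in the members' differences was not tested.

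**Figure D2:**
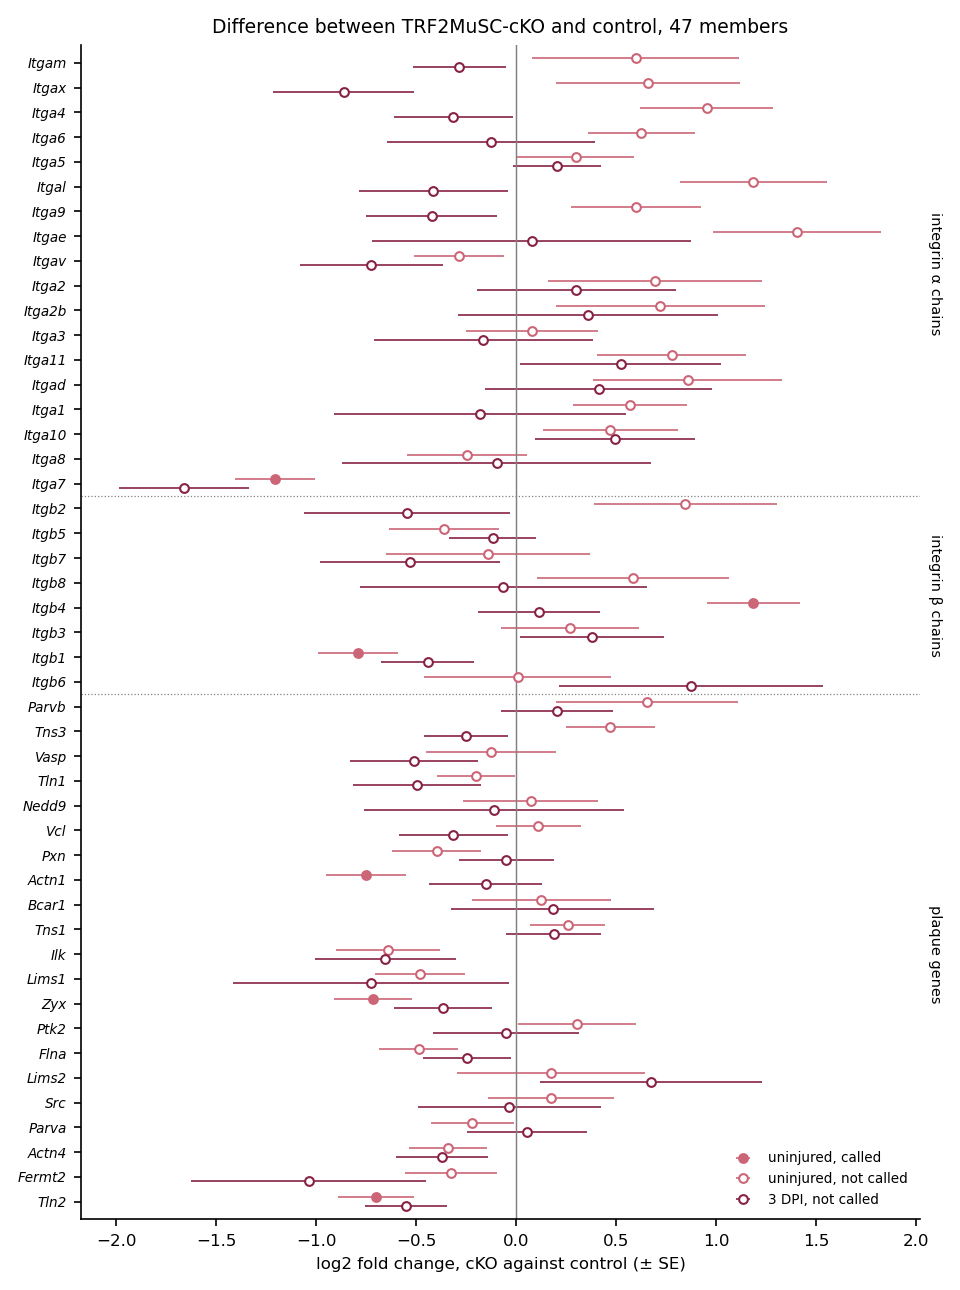
Log2 fold change of TRF2MuSC-cKO against control (horizontal axis) with its SE for each of the 47 members, uninjured (light) and at 3 DPI (dark), filled where called. Filled points are the 6 calls in uninjured muscle, and Itga7 has the lowest value at both stages.

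At 3 DPI the same contrast asked whether the members differed between genotypes after injury. No member was called by edgeR's quasi-likelihood test (0% lower and 0% higher over all 14559 genes tested, of which 1362 had an unadjusted p under 0.05), and 3 members had an unadjusted p under 0.05. DESeq2 called 1 member, and limma's robust fit and limma-voom called none. Over all 14559 genes DESeq2 called 6 lower and 1 higher, limma's robust fit 18 and 10, and limma-voom 0 and 0. The edgeR estimate of the biological coefficient of variation was 0.495, compared with 0.297 in uninjured libraries.

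Itga7 had the smallest p of the members. Controls read 175, 269, 221 and 225 CPM and the libraries labelled TRF2MuSC-cKO 93.5, 96.9, 40.9 and 41.9 CPM. The groups did not overlap, at a 3.16-fold lower mean level in the fit (log2 fold change -1.66, SE 0.32, unadjusted p = 0.000202), and the adjusted p was 0.42. Without replicate 3 of the TRF2MuSC-cKO group Itga7 was called lower (log2 fold change -1.50, adjusted p = 0.00974, the range over all alternatives being 0.004 to 1), as it was in DESeq2 and with all 16 libraries in 1 fit. Over all genes the fit without replicate 3 called 13 lower and 3 higher of 15430, and the fit of all 16 libraries 3 and 0 of 16822. Between the libraries that share a name prefix, the log2 ratio of mean CPM was -1.22, and between the others -2.43, with 2 libraries per genotype in each.

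Tln2 read 219, 207, 198 and 207 CPM in controls and 129.7, 142, 120.3 and 157 CPM at 3 DPI in the libraries labelled TRF2MuSC-cKO, again without overlap (log2 fold change -0.55, SE 0.21, adjusted p = 0.479). Itgax, encoding the αX chain (CD11c) of macrophages and dendritic cells, read 78.8, 102, 179 and 168 and 50.2, 50.7, 69.4 and 111 CPM, with overlap (log2 fold change -0.86, SE 0.35, adjusted p = 0.514). Itgb1 read 290.3, 350.1, 333 and 319 CPM in controls and 263, 291, 148 and 224 CPM in libraries labelled TRF2MuSC-cKO, the lowest being replicate 3 (log2 fold change -0.44, SE 0.23, adjusted p = 0.572, and -0.30 without that library). Itgb4, called higher before injury, overlapped fully at 3 DPI, with 105, 54.5, 77.7 and 73.2 CPM in controls and 78.3, 109.6, 63.2 and 73.4 CPM in libraries labelled TRF2MuSC-cKO (log2 fold change 0.11, SE 0.31).

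Of the 47 members 32 had a log2 fold change below 0 at 3 DPI, with a median of -0.15 beside 0.00 over all genes. Without replicate 3 these were 28 members and -0.13, and leaving out the other libraries in turn gave medians down to -0.37, without replicate 1 of the libraries labelled TRF2MuSC-cKO. With all 16 libraries in 1 fit the median was -0.19, and with the name prefix as a block in that fit 0.04, so its sign depends on that choice. For the 3 activators Tln1, Tln2 and Fermt2 (kindlin 2) the values were -0.50, -0.55 and -1.04, and -0.25, -0.52 and -0.77 without replicate 3. Between the libraries that share a prefix the log2 ratio of mean CPM was 0.01 for Tln1, -0.65 for Tln2 and -0.29 for Fermt2, and between the others -1.22, -0.54 and -2.82. Fermt2 read 92.7, 37.9, 66.9 and 69.9 CPM in controls and 68.9, 38.1, 11.2 and 8.15 CPM in libraries labelled TRF2MuSC-cKO, and the 2 lowest readings were replicates 3 and 4. The 7 leukocyte integrin chains had a median of -0.41 with none called (-0.19 without replicate 3), and the 19 leukocyte markers summed to 5825 to 7662 CPM in controls and 2448 to 7135 CPM in libraries labelled TRF2MuSC-cKO. The lowest sum was that of replicate 3, and the next was 5169.9 CPM. The 11 MuSC markers, Itga7 among them, summed to 1152 to 1699 CPM in controls and 557 to 763 CPM in libraries labelled TRF2MuSC-cKO, with none called, and their part in the members' values was not tested.

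Injury changed more members than genotype did. In control libraries at 3 DPI, 5 of 7 leukocyte integrin chains and the α4, α5, α6, α9, αv and β5 chains rose. The plaque genes β-parvin, tensin 3, VASP and talin 1 rose as well, while talin 2, kindlin 2, α7, α-actinin 4 and α-parvin fell. Of the 47 members 15 were called higher (31.9%), against 10.8% of the 15356 genes tested, and 5 lower (10.6%), against 9.46%. The share called lower was near that of all genes. Every call came with no overlap between the 4 uninjured and 4 injured libraries. The prefix of the sample names is shared by only 1 uninjured and 2 injured control libraries, and with all 16 libraries in 1 fit and the prefix as a block 3 members were called higher (Itga4, Itgam and Tns3) and 1 lower (Tln2), all 20 keeping their direction. Over all genes that fit called 206 higher and 211 lower of 16822. The 16 libraries in 1 fit without the block gave 12 higher and 4 lower, and 861 and 734 over all genes.

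The 3 largest rises were those of the leukocyte chains Itgb2, Itgam and Itgax. Itgb2 (chr10:77530252-77565708, plus strand), encoding β2 (CD18), read 9.83, 7.20, 17.4 and 28.3 CPM before injury and 283, 389, 533 and 522 CPM at 3 DPI (log2 fold change 4.84, SE 0.30, adjusted p = 1.13e-14). Itgam (chr7:128062640-128118491, plus strand), encoding the CD11b that the gate removed, read 16.1, 8.10, 33.7 and 3.90 CPM and 334, 378, 403 and 457 CPM (log2 fold change 4.75, SE 0.37, adjusted p = 9.36e-09). Every injured library lay far above every uninjured one. Per length, Itgb2 and Itgam went from 12.3 ± 6.85 and 7.70 ± 7.04, under the olfactory receptor level, to 345 ± 73.6 and 192 ± 12.3, where Itgb2 was the highest member and Itgb1 stood at 177 ± 10.9.

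Itgax read 13.4, 12.6, 24.4 and 24.4 CPM before injury and 78.8 to 179 CPM after it (log2 fold change 2.89, SE 0.29, adjusted p = 8.71e-11). Itgal read 20.5, 26.1, 11.6 and 17.5 CPM before injury and 64.9, 31.1, 68.8 and 45.3 CPM after it (log2 fold change 1.48, SE 0.34, adjusted p = 0.000579), and Itgb7, the β chain of gut-homing lymphocytes, 24.1, 10.8, 17.4 and 16.6 and 32.4, 37.0, 32.5 and 45.3 CPM (log2 fold change 1.14, SE 0.36, adjusted p = 0.0139). Itgb7 is the weakest of these calls and was lost under 12 of its 19 alternatives. Itgae (1.13, adjusted p = 0.0358) and Itgad (0.18, adjusted p = 0.851) were not called, so 5 of the 7 leukocyte chains rose.

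Leukocyte markers rose in the same libraries. The 19 markers summed to 138 to 152 CPM before injury and 5825 to 7662 CPM after it, and 15 of the 16 tested were called higher. Macrophage genes led the list: Lyz2 read 2131 to 2763 CPM at 3 DPI, Cd68 618 to 1010.5 CPM and Csf1r 458 to 568 CPM. Ptprc, encoding the CD45 that the gate removed, read 10.5 to 17.1 CPM before injury and 186 to 285 CPM after it. The neutrophil markers S100a8 and S100a9 read at most 8.75 CPM and the T cell marker Cd3e at most 7.15 CPM in the 8 control libraries. Of the 11 MuSC markers 10 were called lower, from a sum of 4253 to 6424 CPM to one of 1152 to 1699 CPM. Of the 10 fibroadipogenic markers 6 were called higher, among them Pdgfra, Col1a1 and Ly6a, which encodes the Sca1 that the gate removed, and Col3a1 and Dpt lower, at a sum of 4744 to 7500 CPM before and 3829 to 5941 CPM after injury. The part of these cells in the integrin and plaque gene values was not tested.

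**Figure D3:**
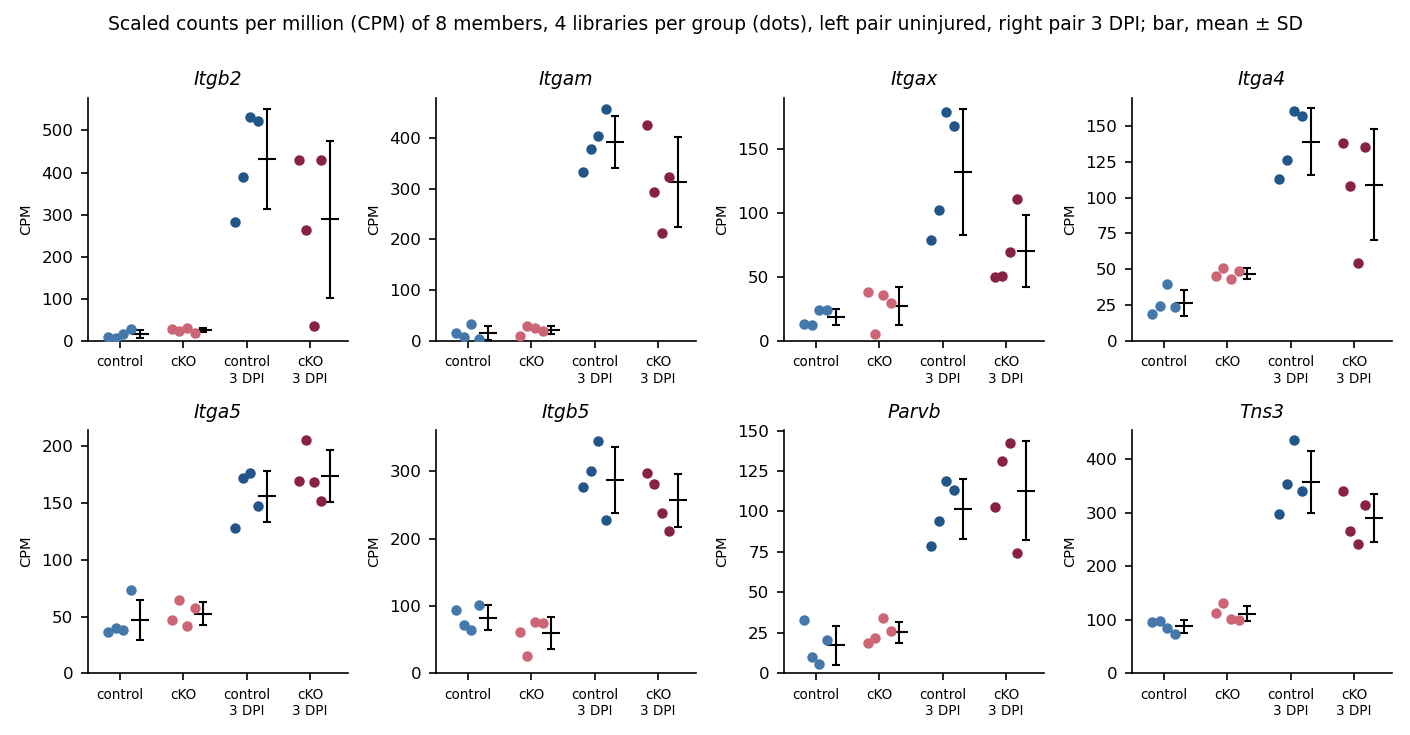
Level in CPM (vertical axes, from 0) of 8 members that rose with injury in controls, in each of the 16 libraries (dots, 4 per group), with the group mean ± SD beside the dots. All 8 are higher in the 4 control libraries at 3 DPI than in the 4 uninjured controls, and 1 library labelled TRF2MuSC-cKO at 3 DPI lies far under the other 3 for Itgb2.

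Among chains that muscle and mesenchymal cells use, Itga4 read 18.8, 24.3, 39.5 and 23.4 CPM before injury and 113, 126, 160.3 and 157 CPM at 3 DPI (log2 fold change 2.45, SE 0.25, adjusted p = 1.2e-10). Itga5 (chr15:103344286-103366763, minus strand), the fibronectin receptor chain, read 36.6, 39.6, 38.4 and 73.1 and 128, 172, 176 and 147 CPM (log2 fold change 1.78, SE 0.23, adjusted p = 3.51e-08). Itga6, a laminin receptor chain, read 60.8, 47.7, 51.2 and 44.8 and 151, 199, 161 and 199.96 CPM (log2 fold change 1.84, SE 0.21, adjusted p = 2.14e-09). For these 3 genes every injured library lay above every uninjured one. Itgb5 (chr16:33829665-33949338, plus strand), a vitronectin receptor chain, read 94.7, 71.1, 63.9 and 101 and 276, 300.5, 345 and 228 CPM (log2 fold change 1.83, SE 0.20, adjusted p = 6.81e-10), and its partner Itgav 115, 114, 128 and 102 and 212, 193, 267 and 286 CPM (log2 fold change 1.10, SE 0.20, adjusted p = 1.85e-05). Itga9, which binds tenascin and VCAM1, read 23.2, 30.6, 29.1 and 40.0 and 58.7, 60.3, 76.7 and 71.6 CPM (log2 fold change 1.17, SE 0.27, adjusted p = 0.000911). Macrophages also express Itga4, Itga5, Itga6, Itgav and Itgb5, and the cell that carried these RNAs was not resolved here.

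Of the α7β1 pair, Itga7 was called and Itgb1 was not. Itga7 fell 2.02-fold from 466 ± 67.9 to 223 ± 38.8 CPM (SD, n = 4, log2 fold change -1.02, SE 0.19, adjusted p = 3.94e-05). Itgb1 read 318 ± 70.0 CPM before injury and 323 ± 25.3 CPM after it and was not called (log2 fold change 0.07, SE 0.19), and its sign turned under 3 alternatives. The 2 changes were not tested against each other. Within the laminin-binding α chains Itga6 rose, Itga7 fell and Itga3 was not called (0.29).

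In the plaque the 2 talins moved apart. Tln2 fell to 219, 207, 198 and 207 CPM at 3 DPI, 4.74-fold under the uninjured controls (log2 fold change -2.24, SE 0.19, adjusted p = 9.52e-13), whereas Tln1 (chr4:43531519-43562691, minus strand) rose from 496, 456, 346 and 544 CPM to 712, 901, 1013 and 919 CPM (log2 fold change 0.99, SE 0.19, adjusted p = 5.02e-05). Per length, Tln2 read 183 ± 28.4 and Tln1 118 ± 14.1 in uninjured controls. At 3 DPI they read 39.1 ± 4.91 and 234.3 ± 18.99, so the order of the talins was reversed in the bulk RNA. The cell that carried the RNA of the talins, and of the plaque genes below, was not resolved here. The kindlin Fermt2 (chr14:45458795-45530118, minus strand) read 175, 140.5, 102 and 151 CPM before and 92.7, 37.9, 66.9 and 69.9 CPM after injury (log2 fold change -1.07, SE 0.23, adjusted p = 0.000335). Of the further genes of the pathway, the leukocyte kindlin Fermt3 rose from 15.5 ± 4.77 to 187 ± 44.5 CPM (log2 fold change 3.63, SE 0.26, adjusted p = 4.38e-15).

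The parvins, which tie integrin-linked kinase to actin, went in opposite directions. Parva (chr7:112427505-112591692, plus strand) read 162, 149, 109 and 165 CPM before injury and 77.2, 70.0, 72.8 and 87.2 CPM after it (log2 fold change -0.89, SE 0.21, adjusted p = 0.000839). Parvb (chr15:84232043-84315688, plus strand) read 33.1, 9.90, 5.81 and 20.5 and 78.8, 94.3, 119 and 114 CPM (log2 fold change 2.57, SE 0.32, adjusted p = 1.71e-08), and the haematopoietic parvin Parvg rose as well (log2 fold change 2.02). Ilk, Lims1 and Lims2, the other members of the complex, had values of 0.04, 0.02 and -0.43 and were not called.

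Of the actin linkers, Actn4 (chr7:28893248-28962340, minus strand) fell from 887, 924, 665 and 1021 CPM to 341, 391, 421 and 529.9 CPM (log2 fold change -1.01, SE 0.19, adjusted p = 4.51e-05), whereas Actn1 read 178 to 275 and 184 to 321 CPM and was not called (0.25). Tns3 (chr11:8431652-8664535, minus strand), encoding tensin 3, rose from 95.6, 97.2, 83.7 and 73.1 CPM to 297, 353, 436 and 341 CPM (log2 fold change 2.07, SE 0.20, adjusted p = 1.9e-11). Vasp (chr7:19256929-19271817, minus strand), an actin filament elongator, read 64.3, 37.8, 37.2 and 41.9 and 95.7, 115, 81.6 and 109 CPM (log2 fold change 1.18, SE 0.24, adjusted p = 0.00014). No gene of the scaffold and kinase group was called, the values of Pxn, Ptk2, Src, Bcar1 and Nedd9 lying between -0.50 and 0.74. Of 49 further focal adhesion genes tested, 15 were called higher (30.6%, against 10.8% of all genes) and 12 lower (24.5%, against 9.46%). Among the former were the integrin activator Apbb1ip (3.28) and the kinase Ptk2b (2.68), and among the latter vinexin (Sorbs3, -2.01) and tensin 2 (Tns2, -1.68). The 27 members that were not called had values from -0.85 for Itga8, an RGD-binding chain, to 1.13 for Itgae.

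**Figure D4:**
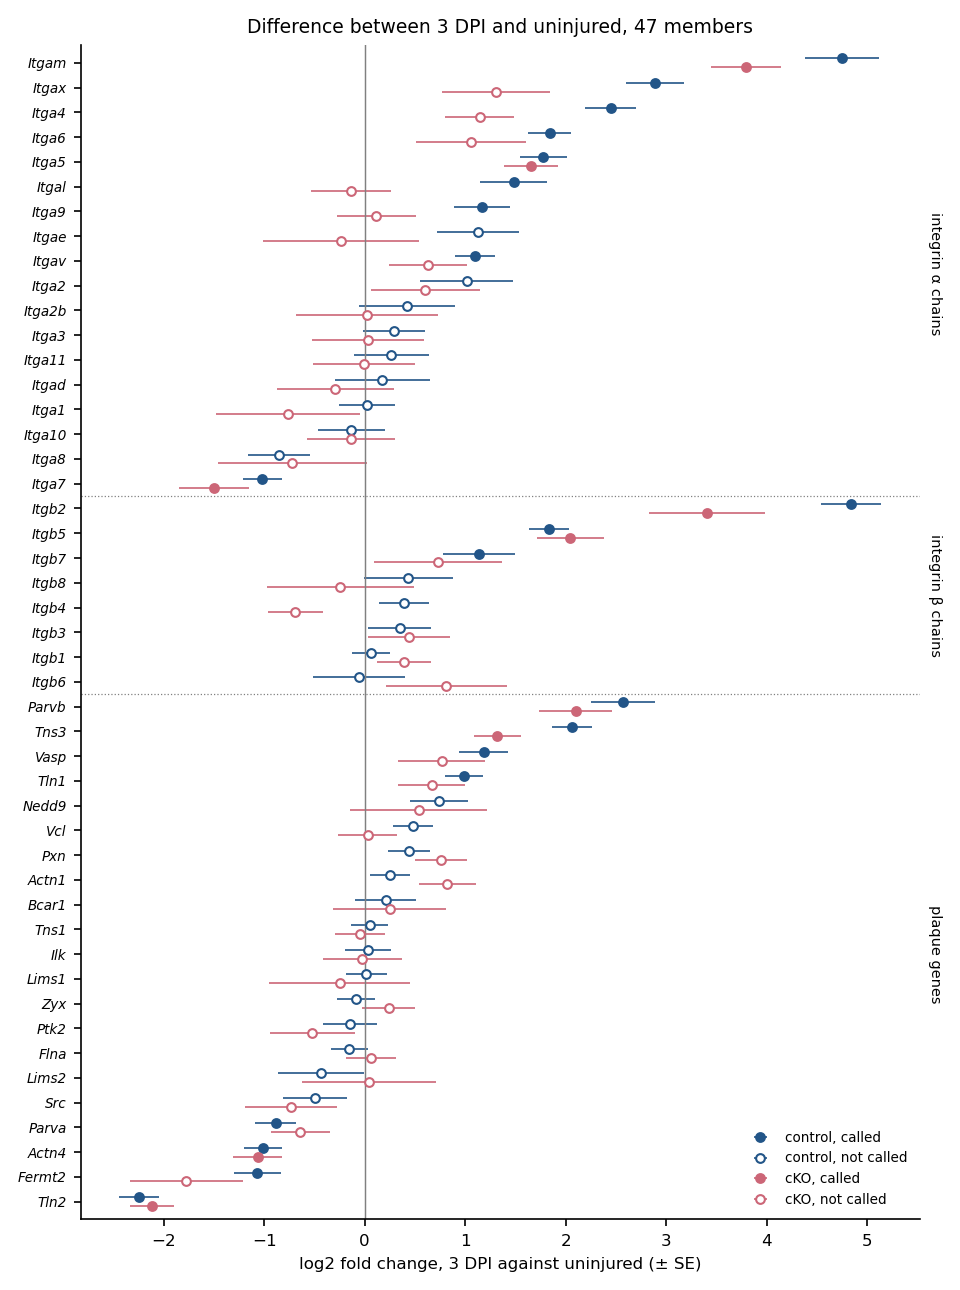
Log2 fold change of 3 DPI against uninjured muscle (horizontal axis) with its SE for each of the 47 members in control (blue) and TRF2MuSC-cKO cells (red), filled where called. In controls 20 points are filled, from Tln2 at -2.24 to Itgb2 at 4.84, and in the libraries labelled TRF2MuSC-cKO 9.

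In the libraries labelled TRF2MuSC-cKO the same contrast called 6 members higher (12.8%), against 2.43% of the 14578 genes tested, and 3 lower (6.38%), against 1.61%. All 9 had also been called in controls in the same direction, which is 6 of 6 and 6 of 15 of the rises and 3 of 3 and 3 of 5 of the falls. The control and TRF2MuSC-cKO injury contrasts share no library. The biological coefficient of variation was 0.523 here and 0.276 in controls. With all 16 libraries in 1 fit and the name prefix as a block, which again sets 2 injured against 1 uninjured library, Itgam was the only member called higher and Tln2, Itga7, Actn4 and Fermt2 were called lower. All 9 kept their direction. The same fit without the block called 7 higher and 4 lower, Fermt2 among the latter. Over all 16822 genes the fit with the block called 101 higher and 175 lower, and the fit without it 721 and 483.

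Itgam read 10.7, 29.1, 25.8 and 20.4 CPM before and 426, 293, 212 and 324 CPM after injury (log2 fold change 3.79, SE 0.35, adjusted p = 1.54e-05). Itgb2 read 28.4, 23.9, 31.5 and 19.1 and 430.0, 263, 34.7 and 429 CPM, and the third injured library was barely above the uninjured ones (log2 fold change 3.41, SE 0.58, adjusted p = 0.00202). Without it the log2 fold change of Itgb2 was 3.81 and that of Itgam 3.96. Itgb5 read 61.5, 26.0, 75.9 and 74.9 and 297, 281, 238 and 211 CPM (log2 fold change 2.05, SE 0.33, adjusted p = 0.00138) and Itga5 47.3, 64.4, 41.5 and 57.2 and 169, 205, 169 and 151 CPM (log2 fold change 1.66, SE 0.27, adjusted p = 0.00156). Of the plaque, Parvb rose from 18.9, 21.8, 34.4 and 25.9 to 103, 131, 143 and 74.6 CPM (log2 fold change 2.10, SE 0.36, adjusted p = 0.00242), and Tns3 from 112, 131, 102 and 99.4 to 340.0, 265, 242 and 315 CPM (log2 fold change 1.32, SE 0.23, adjusted p = 0.00282). In each of these 6 genes the injured libraries lay above the uninjured ones. The 19 leukocyte markers summed to 179.7 to 226 CPM before and 2448 to 7135 CPM after injury, with S100a9 at 0 in all 4 injured libraries, and 14 of the 15 tested were called higher.

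The members that fell were Tln2, Itga7 and Actn4. Tln2 fell from 569.6 ± 30.3 to 137 ± 16.0 CPM (SD, n = 4, log2 fold change -2.12, SE 0.21, adjusted p = 3.35e-05). Itga7 fell from 186 ± 50.8 to 68.3 ± 31.1 CPM (log2 fold change -1.50, SE 0.35, adjusted p = 0.0182), so that the injured libraries labelled TRF2MuSC-cKO held the lowest Itga7 readings of all 16. Actn4 read 463, 634, 625 and 810.4 CPM before and 421, 304, 237 and 303 CPM after injury (log2 fold change -1.07, SE 0.25, adjusted p = 0.0184). The Itga7 and Actn4 calls were close to the threshold. Itga7 lost its call without any one of the 8 libraries other than injured replicate 3, and without uninjured TRF2MuSC-cKO replicate 2, 3 or 4 or injured replicate 2 or 4 Tln2 was the only member called lower. Without injured replicate 3, the calls numbered 10 higher and 3 lower: Actn1, Itga4, Itga6 and Tln1 joined the rises. Calls rose over all genes too, to 803 higher and 513 lower of 15547 tested, from 354 and 235 of 14578.

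Members called in controls and not in the libraries labelled TRF2MuSC-cKO are not thereby shown to differ. Itga4 read 45.0, 50.9, 42.9 and 49.0 and 138, 108, 54.5 and 135 CPM in the libraries labelled TRF2MuSC-cKO (log2 fold change 1.14, SE 0.34, adjusted p = 0.0693), Itga6 50.9, 71.7, 98.8 and 69.5 and 289, 209.9, 18.6 and 121 CPM (log2 fold change 1.06, SE 0.55, adjusted p = 0.375), and Fermt2 94.7, 158, 65.8 and 95.3 and 68.9, 38.1, 11.2 and 8.15 CPM (log2 fold change -1.77, SE 0.56, adjusted p = 0.0914). The remaining 8 (Itgax, Itgal, Itga9, Itgav, Itgb7, Parva, Tln1 and Vasp) had log2 fold changes from -0.64 for Parva to 1.30 for Itgax. Itgal read 40.2, 40.5, 50.1 and 28.6 CPM in uninjured and 42.1, 39.2, 36.0 and 34.9 CPM in injured libraries labelled TRF2MuSC-cKO, with overlap. Itgax read 37.9, 5.19, 35.8 and 30.0 CPM before and 50.2, 50.7, 69.4 and 111 CPM after injury, without overlap. Among the matrix-binding chains Itga9 read 47.3, 48.8, 37.2 and 36.8 CPM before and 68.9, 33.4, 43.4 and 47.8 CPM after injury, and Itgav 98.2, 67.5, 106 and 74.9 CPM before and 227, 172, 50.8 and 115 CPM after injury. The groups overlapped for both. Itgb7 read 18.9, 21.8, 10.0 and 5.45 CPM before and 31.5, 23.1, 32.2 and 11.6 CPM after injury. Of the plaque genes, Parva read 108, 122, 106 and 125 CPM before and 59.6, 79.6, 109 and 59.4 CPM after injury. Tln1 read 266, 403, 336 and 463 CPM before and 899.6, 719.6, 239 and 589 CPM after injury, and Vasp 17.8, 38.4, 47.2 and 50.4 CPM before and 80.6, 55.4, 95.5 and 40.8 CPM after injury. All 4 overlapped, and for Tln1 replicates 3 and 4 were the lowest injured readings. Neither Actn1 nor Zyx was called for injury. Actn1 read 184, 257, 256 and 321 CPM in injured controls and 313, 156, 146 and 276 CPM in injured libraries labelled TRF2MuSC-cKO, and Zyx 249, 292, 302 and 267 and 284, 187, 130.2 and 238 CPM.

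The test of the difference itself, the interaction of genotype and injury over all 16 libraries, called no member. Over the 16822 genes tested it called 0.0178% lower (3 genes) and 0% higher, and 966 had an unadjusted p under 0.05. By edgeR 6 members had an unadjusted p under 0.05, all with a lower injury value in the libraries labelled TRF2MuSC-cKO: Itgal (-1.51, SE 0.52, adjusted p = 0.638), Itga4 (-1.19, SE 0.43, adjusted p = 0.701), Itgb4 (-0.98, SE 0.39, adjusted p = 0.757), Itgax (-1.44), Tns3 (-0.64) and Itga9 (-0.94). DESeq2 and limma-voom called none either, with 6 members each at that level, and limma's robust fit none, with 10. Over all 16822 genes DESeq2 called 9 lower and 6 higher, limma-voom 1 and 0, and limma's robust fit 78 and 45. For these fits the genes with an unadjusted p under 0.05 were not counted over all genes, so their member counts have no share beside them. The interaction value of Itga7 was -0.37 (SE 0.39) and that of Itgb1 0.43 (SE 0.34). Without 1 library they ran from -0.70 to -0.20 and from 0.19 to 0.58. The lowest values over all alternatives were -1.38 and -0.24. The median over the 47 members was -0.21, beside 0.03 over all genes tested. It was -0.40 without replicate 2 and -0.12 without replicate 3 of the injured libraries labelled TRF2MuSC-cKO, -0.08 without uninjured control replicate 3 and -0.58 with the name prefix as a block. Without that injured replicate 3, 8 members had an unadjusted p under 0.05 and none was called. These values read both genotype effects and both injury effects at once, since the same 4 groups enter them.

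Set side by side, the integrin chains of myogenic cells and those of leukocytes were summed in each library. The 7 chains listed for myogenic cells (Itga3, Itga5, Itga6, Itga7, Itga9, Itgav and Itgb1) summed to 1193, 984, 942 and 1157 CPM in uninjured controls and to 576, 593, 674 and 752 CPM in uninjured TRF2MuSC-cKO cells. The groups did not overlap. The lower sum, and the ratio below that uses it, rest on Itga7 (mean 466 and 186 CPM) and Itgb1 (318 and 169 CPM). Of the 7 chains, 4 had a log2 fold change above 0 and 3 below in uninjured muscle, with a median of 0.08. At 3 DPI they summed to 1078, 1269, 1285 and 1310.0 CPM in controls and to 1171, 1081, 479 and 732 CPM in libraries labelled TRF2MuSC-cKO, where replicate 3 was lowest and the groups overlapped, as they did without it.

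The 7 leukocyte chains (Itgad, Itgae, Itgal, Itgam, Itgax, Itgb2 and Itgb7) summed to 108, 93.6, 155 and 113 CPM in uninjured controls and to 193, 205, 216 and 147 CPM in uninjured TRF2MuSC-cKO cells. At 3 DPI they reached 829, 974, 1275 and 1294 CPM in controls and 1015, 725, 435 and 983 CPM in libraries labelled TRF2MuSC-cKO. The sum of leukocyte chains divided by that of myogenic chains was 0.112 ± 0.0350 (SD, n = 4) in uninjured controls, 0.299 ± 0.0696 in uninjured TRF2MuSC-cKO cells, 0.879 ± 0.128 in controls at 3 DPI and 0.948 ± 0.284 at 3 DPI in the libraries labelled TRF2MuSC-cKO. Without replicate 3 the last was 0.961 ± 0.346 (n = 3). Uninjured libraries of either genotype lay below all injured ones. In uninjured controls 6 of the 7 leukocyte chains lay under the olfactory receptor level per length, and the olfactory sum was itself 2519 CPM on average there and 3634 CPM in uninjured TRF2MuSC-cKO cells, so the uninjured ratios rest on readings near background. Itgam and Itgb2 made up 16.3 to 33.1% of the leukocyte chain sum in uninjured libraries and 56.7 to 84.3% at 3 DPI (76.5% or more in the group labelled TRF2MuSC-cKO without replicate 3).

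**Figure D5:**
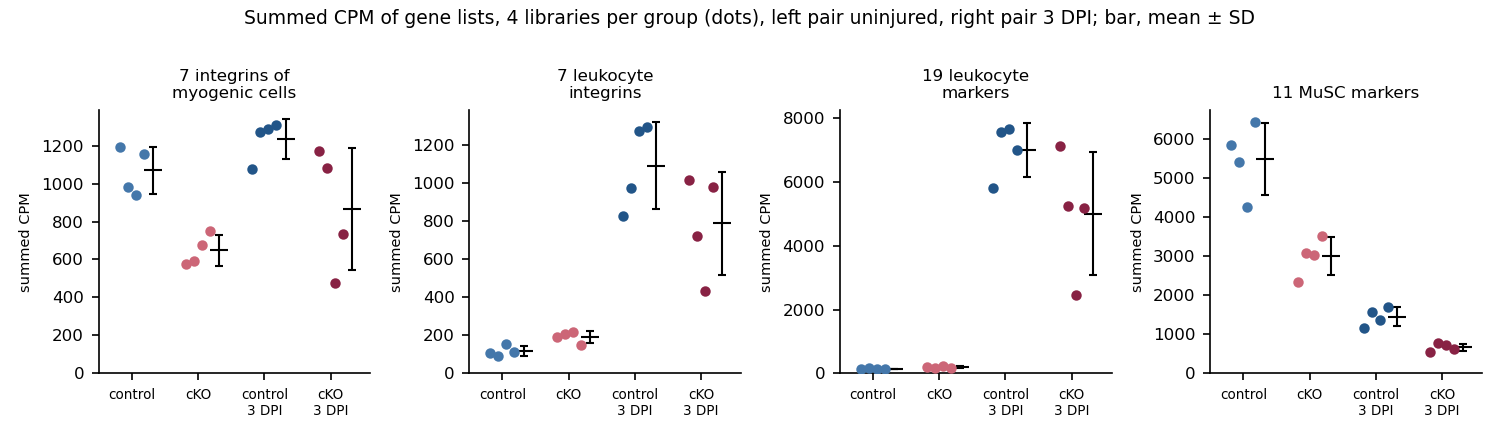
Summed CPM (vertical axes, from 0) of the 7 myogenic integrin chains, the 7 leukocyte integrin chains, 19 leukocyte markers and 11 MuSC markers in each library (dots, 4 per group), with the group mean ± SD beside the dots. Leukocyte chains and leukocyte markers are both far higher in all 8 libraries at 3 DPI, while MuSC markers are lower there, at 557 to 1699 CPM against 2346 to 6424 CPM in the 8 uninjured libraries.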

How the data were processed

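MuSCs were sorted by the authors and total RNA libraries made with the Lexogen CORALL kit, which is random-primed and stranded and adds molecular identifiers. Whether identifiers were collapsed is not given in the sources used here. The libraries are described as biological replicates without naming animals, so p-values measure the spread between these libraries. Per the labels, the submitters' processing notes name Trim Galore 0.6.7, STAR 2.6.1d and Salmon 1.5.2 on GRCm38. Values deposited by the authors are estimated counts per gene, once as Salmon gives them and once rescaled to abundance, in which a level is per length. Here estimated counts were rounded and fitted in edgeR 4.0.16 (R 4.3.3): filterByExpr, TMM scaling, robust quasi-likelihood fit, Benjamini-Hochberg adjustment over all genes tested. Each comparison used its own 8 libraries and the interaction all 16. SE is the log2 fold change divided by the root of the F statistic. CPM were scaled over the 16 libraries together.

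Alternatives were size factors by median of ratios, library size alone, other filters, limma 3.58.1, DESeq2 1.42.0, 1 fit for all libraries, the rescaled table, the replicate number or name prefix as a block, and each library left out in turn. Values of all members and sums without replicate 3 of the injured group labelled TRF2MuSC-cKO were added after seeing the data. The fit was tested on simulated data. Promoters were searched with Python 3.11.15, and positions are those of GENCODE M21. Members described in full are those called in any comparison, the 3 of smallest p in each, and Itga7, Itgb1 and Itgam. Other members are named with a fold change only to mark the ends of a range, a role group or the values nearest to a call, picked with those values in view. The members, lists and tests were chosen with earlier results of these data known. No 2 replicates agreed within sampling noise.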

Additional observations from a re-analysis of the deposited data

Results flagged for a closer look

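In 2 of the 96 sets of 4 readings that were examined (24 named members in 4 groups), 1 library lay far from the other 3 by Dixon's criterion, for which chance gives about 1 in 20. Zyx read 397 CPM in uninjured control replicate 4, against 268 to 281 CPM in the others. Itga5 read 73.1 CPM in the same library, against 36.6 to 39.6 CPM in the others. Zyx lost its call in uninjured TRF2MuSC-cKO cells without that library, as it did without 6 of the other 7, at log2 fold changes of -0.80 to -0.61. The rise of Itga5 with injury in controls stayed called.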

How the results depend on the processing

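Over 49 log2 fold changes recomputed under the alternatives, of 960 values 838 kept direction and call, 113 kept direction and lost the call, 3 gained it and 6 turned sign. In uninjured muscle 5 members were called lower and 1 higher. The lower count became 1 with library size alone, limma's robust fit or all 16 libraries in 1 fit, 3 with limma-voom and 0 with the rescaled table. The higher count became 2 with library size alone or DESeq2 (Itgae added) or a minimum of 10 counts in every library (Itgal added), and 0 with all 16 libraries in 1 fit or the rescaled table, and in limma's robust fit the 1 higher was Itga4 in place of Itgb4. Leaving out 1 library gave 1 to 5 lower. Over all genes the lower calls in uninjured muscle ran from 11 with the rescaled table to 503 without a filter on low counts, against 370. At 3 DPI the lower count of 0 became 1 with DESeq2 or all 16 libraries in 1 fit, and was 0 to 1 without 1 library, always for Itga7. For injury in controls (5 lower, 15 higher) the name prefix as a block, in a fit of all 16 libraries like its other uses here, gave 1 and 3, and that fit without the block 4 and 12. For injury in TRF2MuSC-cKO cells (3 lower, 6 higher) the rescaled table gave 1 and 3, the name prefix block 4 and 1, all 16 libraries in 1 fit without it 4 and 7 (Fermt2 among the lower in both), and leaving out 1 library 1 to 3 lower and 5 to 10 higher. Over all genes the rescaled table called 109 lower and 174 higher there, against 235 and 354 in the main fit. Leaving out 1 library gave 134 to 513 lower and 214 to 803 higher over all genes. With library size alone the median of all genes was 0.24 in uninjured muscle and 0.23 for injury in controls, against 0.06 and 0.07 with TMM, and the lower calls counted here are relative to TMM.

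The 6 values that turned sign were uncalled: Itgam at 3 DPI (0.0143 with the name prefix block), Itgb1 for injury in controls (-0.0102 with the rescaled table, -0.0227 with the name prefix block, -0.10 to 0.18 without 1 library, the sign turning without uninjured control replicate 3), Itgb1 for injury in TRF2MuSC-cKO cells (-0.27) and its interaction (-0.24), both with the name prefix block. The cause was not tested. With the replicate block, the paired fit, 5 members were called lower and 1 higher in uninjured muscle, 0 at 3 DPI, 5 lower and 14 higher for injury in controls, and 1 lower and 4 higher for injury in TRF2MuSC-cKO cells, where Itga7, Actn4, Itgb2 and Tns3 lost their calls, as Itgb7 did in controls. Over all genes that fit called 448 lower and 88 higher in uninjured muscle, and 0 and 0 at 3 DPI. For injury it called 1299 and 1538 in controls, against 1452 and 1652 in the main fit. In TRF2MuSC-cKO cells these were 144 and 220, against 235 and 354, so calls fell over all genes too. Same-numbered libraries of 2 groups had correlations of -0.110 to 0.111 in their deviations, 1 of 16 over 0.1, so the numbers do not pair them. Library totals were 620506 to 1351130 counts, and what this depth limits was not tested by count level.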
